A study of Ovis aries with 32 samples.

Results

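The genes described here are those of the proteasome, the barrel-shaped protease that degrades proteins tagged with ubiquitin. Members were taken by symbol: every gene name in the deposited table that begins with PSMA, PSMB, PSMC, PSMD, PSME or PSMG followed by a digit. The rule found 45 of the 30722 rows of the table, each symbol on a single row. Of these, 43 encode subunits, activators or assembly factors of the proteasome, and 2 matched by name only: PSMC3IP, a meiotic recombination factor, and PSME3IP1, a protein that binds the activator PA28 gamma. By role they comprised 6 alpha-ring subunits, 6 constitutive beta-ring subunits, 2 inducible catalytic subunits, 6 ATPases of the regulatory particle base, 11 non-ATPase subunits, 6 assembly chaperones, 4 activators, 2 tissue-specific core subunits and the 2 partner proteins. PSMA2, PSMB6, PSMB9 and PSMD10, which RefSeq names in sheep, were not analysed here.

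The study used male Tan sheep, a Chinese fat-tailed breed, aged 3 months. The animals, 12 per diet, were kept singly on a basal pelleted feed (CON) or on that feed with 1% succinic acid of the dry matter (SA) for 60 days, after 10 days of adaptation. Succinic acid is an intermediate of the citric acid cycle. Poly(A)-selected RNA from 4 sheep of each diet was sequenced in tail fat, liver and tissues labelled pituitary and hypothalamus, which gave 8 groups of 4 libraries and 32 libraries in all. No label ties equally numbered libraries of separate tissues to 1 animal, and the p-values below measure the spread between these libraries.

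The 20S core is a stack of rings in which outer alpha subunits gate the channel and inner beta subunits hold the proteolytic sites. The 19S particle caps the core: its ATPases of the PSMC genes unfold the substrate, and its PSMD subunits bind and remove ubiquitin. Interferon replaces the constitutive catalytic subunits with inducible ones, PSMB8 taking the place of PSMB5 and PSMB10 that of PSMB7, and induces PSME1 and PSME2, which form the activator PA28 alpha-beta. The altered particle, the immunoproteasome, trims peptides for display on MHC class I. Transcription of the whole set is driven by the factor NRF1, encoded by NFE2L1, and by related proteins when proteasome activity is short.

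Levels are in TPM (transcripts per 1000000), a per-length share of each library's transcripts that keeps no record of read depth, so the depth behind each value is unknown. Because TPM is a share, RNA that fills a library lowers every other value, and mitochondrially encoded transcripts took 20.2 to 27.8% of the liver CON libraries against 51.7 to 70.9% of the liver SA libraries. In tail fat that share was 22.5% in CON 2 and 25.6% in SA 1, the lowest of their groups, and reached 70.6% in CON 3. In pituitary SA 4 it was 67.4%. Tail fat CON 2 and SA 1 also differed from the other 6 tail fat libraries in CCDC152, at 0.12 and 0.07 TPM against 57.8 to 185.6 TPM. The same gene split liver by diet, at 0 TPM in every CON library and 168 to 842 TPM in the SA libraries. In liver, diet and this difference between libraries therefore cannot be told apart. Hepatocyte marker genes summed to 94831 to 108417 TPM in liver CON and 7835 to 31371 TPM in liver SA, and adipocyte markers to 10749 to 74476 TPM in tail fat. In the pituitary-labelled libraries the 5 anterior pituitary hormone genes summed to only 2.85 to 5.90 TPM, with CGA and FSHB at 0, while neuronal markers summed to 563 to 2567 TPM. In the hypothalamus-labelled libraries the 5 hypothalamic neuropeptide genes summed to 4.41 to 10.5 TPM and striatal markers to 1995 to 3606 TPM. The defining hormone genes of both labels were therefore near 0, and the words hypothalamus and pituitary below stand for the labels.

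Proteasome genes were abundant in all tissues of the control animals. The 43 members other than the partner proteins summed to 2380 ± 213 TPM in hypothalamus, 3193 ± 125 TPM in pituitary, 2534 ± 235 TPM in liver and 2670 ± 1404 TPM in tail fat (mean ± SD, n = 4). The tail fat sums spread from 1376 to 4641 TPM and took in the range of each other tissue. The member of highest mean differed between tissues: the beta subunit PSMB7 in hypothalamus (152 ± 15.1 TPM), the ATPase PSMC1 in pituitary (198 ± 14.2 TPM), the lid subunit PSMD6 in liver (194 ± 58.3 TPM) and the beta subunit PSMB1 in tail fat (241 ± 55.5 TPM; n = 4 each). PSMA8, the testis form of an alpha subunit, and PSMB11, the catalytic subunit of thymic epithelium, stayed at or below 1.15 and 0.43 TPM in every library. Both were below the expression filter of 1 TPM in 4 libraries, so 43 members were tested in each comparison. Subunits of the core, which is built with equal copies of each ring member, were most evenly expressed in the brain-labelled tissues. There the highest of the 12 core transcripts was on average 4.55 times the lowest in hypothalamus and 4.61 times in pituitary CON, against 6.75 times in liver CON and 16.9 times in tail fat CON. The tail fat mean hides a split. CON 2 gave 5.66 times, within the liver CON range of 5.51 to 7.97, and the other tail fat controls 18.7 to 21.9 times.

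The first question was how the control tissues differ. Across the 16 CON libraries, the inducible subunit PSMB8 and the activator PSME2 were lower in the brain-labelled tissues than in liver and in tail fat, and PSMB10, PSMB1 and PSMD6 were lower than the mean of those tissues, by limma on log2(TPM + 1) with Benjamini-Hochberg adjustment over 15929 genes. In bulk tissue, fewer cells that express a gene and less RNA per cell cannot be told apart. In this contrast 17 of 43 members (39.5%) were called higher and 5 (11.6%) lower, against 61.8% higher and 17.4% lower of all genes tested. The members' median difference was 0.29 on the log2 scale and that of all genes 0.85, and 35 of the 43 members lay below the latter.

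PSMB8 had 5.19, 4.04, 5.79 and 5.18 TPM in hypothalamus CON 1 to 4 and 4.58, 6.77, 6.08 and 6.92 TPM in pituitary CON. It had 26.8, 33.0, 24.7 and 20.7 TPM in liver CON and 19.8, 21.9, 20.2 and 24.3 TPM in tail fat CON. All 8 brain-labelled libraries lay below all 8 others, with a log2 difference of -1.92 ± 0.14 (SE; adjusted p = 1.1e-09). PSME2 gave 13.4, 19.0, 25.0 and 22.2 TPM in hypothalamus and 27.3, 25.9, 21.0 and 26.8 TPM in pituitary. In liver it gave 105, 124, 149.7 and 122 TPM, and in tail fat 52.7, 57.4, 42.1 and 53.2 TPM. Its tissues followed the same split without overlap (-1.81 ± 0.16, adjusted p = 1.2e-08), and liver stood above tail fat. PSMB1, a core subunit without catalytic activity, was the third in this direction at -0.76 ± 0.15 (adjusted p = 0.000151). It ranged from 76.1 to 94.3 TPM in hypothalamus, 95.7 to 108 in pituitary, 93.8 to 116 in liver and 181 to 300.1 in tail fat, so tail fat lay above each of the other 3. PSMB10 averaged 9.73 ± 2.05 TPM in hypothalamus, 16.3 ± 3.17 in pituitary, 15.3 ± 3.65 in liver and 31.7 ± 10.8 in tail fat (n = 4 each), and the means of pituitary and liver differed by less than their SD. PSMD6 ranged from 44.8 to 51.7 TPM in hypothalamus and from 55.7 to 65.8 TPM in pituitary, below all liver libraries (134 to 244 TPM) and within the range of tail fat (26.7 to 98.7 TPM). PSMB5, the constitutive partner of PSMB8, was called higher than the mean of liver and tail fat (0.63 ± 0.27, adjusted p = 0.0412), but not after quantile normalization (0.10, adjusted p = 0.513). Its hypothalamus libraries (61.3 to 75.2 TPM) overlapped those of liver (74.5 to 102 TPM) at the lower end, and the low libraries were in tail fat (12.8 to 89.5 TPM). The ratio of PSMB8 to PSMB5 within a library was 0.0731 in hypothalamus and 0.0644 in pituitary CON, 0.326 in liver and 0.817 in tail fat (means of 4). Tail fat ran from 0.245 in CON 2 to 1.57 in CON 3, and CON 2 lay within the liver CON range of 0.203 to 0.423.

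In the other direction, the non-ATPase subunits PSMD1 and PSMD12 and the partner protein PSME3IP1 had the smallest p-values. PSMD1, the scaffold of the base that receives ubiquitin receptors, had 74.0, 85.5, 77.0 and 80.4 TPM in hypothalamus and 127, 136, 132 and 133 TPM in pituitary, against means of 53.1 ± 10.7 TPM in liver and 31.0 ± 21.5 TPM in tail fat (n = 4). The difference was 1.42 ± 0.22 (adjusted p = 1.3e-05). PSMD12, a lid subunit, had 36.1, 39.8, 39.6 and 38.5 TPM in hypothalamus and 55.1, 53.9, 48.3 and 53.7 TPM in pituitary, and means of 18.2 ± 2.63 and 17.5 ± 15.6 TPM in liver and tail fat. Both lid and base scaffold transcripts were thus tightly grouped in the brain-labelled libraries and widely spread in tail fat. PSME3IP1 ranged from 39.2 to 55.3 TPM in hypothalamus and from 59.8 to 62.6 TPM in pituitary (0.96 ± 0.16, adjusted p = 3.5e-05).

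The brain-labelled contrast depended on how libraries were scaled. After quantile normalization 4 members (9.30%) were higher and 22 (51.2%) lower, beside 36.6% and 41.0% of all genes. With mitochondrially encoded and ribosomal RNA genes removed and the rest rescaled, 26 (60.5%) were higher and 5 (11.6%) lower, beside 66.0% and 16.8%. PSMB1, PSMB8, PSMB10, PSMD6 and PSME2 were called lower in this contrast under all 3 scalings, and PSMC2, PSMD1, PSMD2 and PSMD12 were higher and called under all 3. The gene lists were tested on the deposited scale only, where 61.8% of all genes were called higher and 17.4% lower. Of the interferon and antigen presentation list, 7 of 16 genes were called lower and 2 higher in the brain-labelled tissues. Of other many-subunit complexes, 5 of 6 TRiC chaperonin genes were called higher and none lower, and 11 of 20 genes of the COP9 signalosome and eIF3, relatives of the proteasome lid, were called higher and 3 lower, close to the share for all genes.

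**Figure D1:**
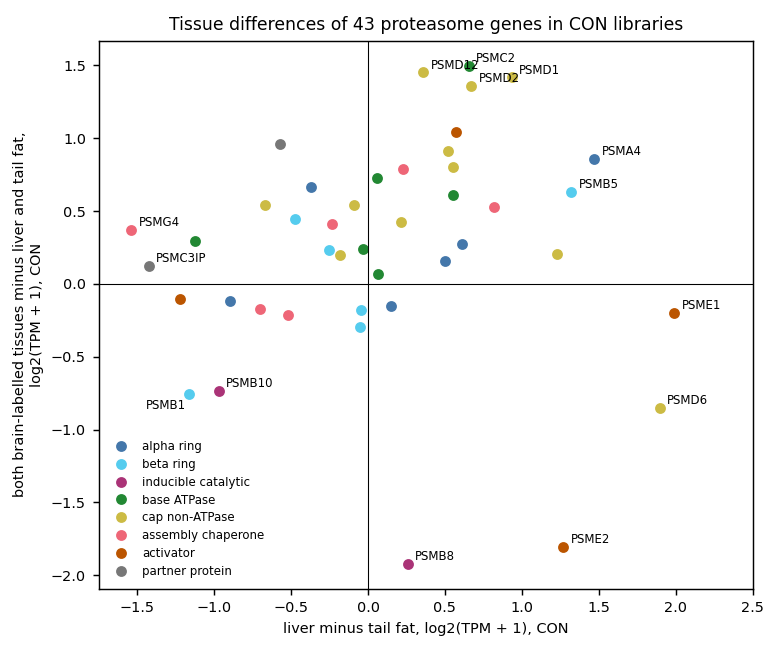
Tissue differences of the 43 tested members in control animals, each point a gene coloured by role: liver minus tail fat on the horizontal axis and both brain-labelled tissues minus liver and tail fat on the vertical axis, both on the log2(TPM + 1) scale. PSMB8 (-1.92) and PSME2 (-1.81) lie at the bottom under all 3 scalings, and PSME1 (1.99) and PSMD6 (1.89) at the far right; members near 0 can change sign with the scaling.

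Liver and tail fat of control animals differed in 16 members, 8 higher (18.6%) and 8 lower (18.6%) in liver, against 23.3% and 20.8% of all genes. PSME1 and PSME2, which together form PA28 alpha-beta, were higher in liver, whereas the assembly chaperones PSMG3 and PSMG4, the single-chain activator PSME4 and the inducible PSMB10 were lower. PSME1 had 158, 132, 199 and 170.1 TPM in liver and 35.4, 53.2, 36.4 and 38.5 TPM in tail fat, without overlap (1.99 ± 0.21, adjusted p = 5.2e-07). PSMD6 had 154, 134, 244 and 244 TPM in liver and 52.2, 98.7, 26.7 and 43.9 TPM in tail fat (1.89 ± 0.32, adjusted p = 9.7e-05). For both genes every liver library exceeded every tail fat library. PSME2 differed by 1.27 ± 0.23 (adjusted p = 0.000187), with the libraries listed above. CCDC152 was at 0 TPM in every liver CON library and at 57.8 to 161.5 TPM in the tail fat controls other than CON 2. The part of this difference between libraries in the tissue contrast was not tested.

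PSMG4, which helps pair the alpha subunits early in ring assembly, had 6.63, 5.75, 5.41 and 4.88 TPM in liver and 24.9, 15.3, 11.1 and 26.1 TPM in tail fat (-1.54 ± 0.24, adjusted p = 4.8e-05). The partner protein PSMC3IP was below 1 TPM in all 4 liver CON libraries and between 1.16 and 3.96 TPM in tail fat (-1.43 ± 0.24, adjusted p = 0.000107). PSMB1 was the third, at -1.16 ± 0.21 (adjusted p = 0.000187). The 3 genes did not overlap between the tissues. Under quantile normalization 8 members (18.6%) were higher and 21 (48.8%) lower in liver, beside 24.8% and 32.2% of all genes, and with mitochondrially encoded and ribosomal RNA removed 5 (11.6%) and 24 (55.8%), beside 16.9% and 40.6%. Under all 3 scalings 8 members were called lower in liver (PSMA7, PSMB1, PSMB10, PSMC1, PSMG3, PSMG4, PSME4 and PSMC3IP) and 5 higher (PSMA4, PSMB5, PSMD6, PSME1 and PSME2). Without tail fat CON 2 the count was 28, of which 20 were higher in liver. The share of all genes called in that fit is not given here, so this count does not show a difference particular to the members.

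Hypothalamus and pituitary did not differ in any member at an adjusted p of 0.05 by limma, while 13.1% of all genes did. The members' values were lower in hypothalamus for 39 of 43, 7 of them at an unadjusted p under 0.05, with a median of -0.35 against -0.21 for all genes. The smallest p-values were those of PSMC1 (-0.86 ± 0.30, adjusted p = 0.072), PSMB10 (-0.69, adjusted p = 0.109) and the ATPase PSMC5 (-0.80, adjusted p = 0.109). PSMC1 nevertheless ran from 99.5 to 119.8 TPM in hypothalamus and from 183 to 216 TPM in pituitary, and PSMC5 from 74.8 to 108 and from 151 to 176 TPM, so these libraries did not overlap. Under both other scalings PSMC1 (-0.81, adjusted p = 0.000228, and -0.67, adjusted p = 0.00255), PSMC5 (-0.73, adjusted p = 0.000896, and -0.61, adjusted p = 0.00474) and the ubiquitin receptor PSMD4 (-0.72, adjusted p = 0.00529, and -0.59, adjusted p = 0.0323) were called lower in hypothalamus, and after quantile normalization PSMC3 and PSMD1 also were. Quantile normalization thus called 5 of 43 members, and removal of mitochondrially encoded and ribosomal RNA 3. The share of all genes called under those scalings is not given here, so these calls do not show a difference particular to the members. On the deposited scale the members with positive values included PSMB2 (0.10), PSMG2 (0.09) and PSMG4 (0.08).

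The diet was the study's treatment, and liver was the tissue in which members differed between the diets by limma on the deposited scale. Diet there coincided with the mitochondrial share and the CCDC152 level given above, and their parts cannot be told apart. Most of the core, base and lid were lower in SA liver. By limma 35 of 43 members (81.4%) were called lower, against 59.1% of the 11582 genes tested. The 2 called higher (4.65%, against 5.21% of all genes) were PSMG4 and the partner protein PSMC3IP. PSMC3IP passed the expression filter only through the SA libraries, so its call is no support for a rise. The median member changed by -1.49 on the log2 scale and the median gene by -0.83, and 32 members lay below the latter. The summed level of the 43 members other than the partner proteins was 2277 to 2826 TPM in CON and 639 to 1087 TPM in SA, without overlap. After quantile normalization the median gene changed by -0.09 and the median member by -0.46. After removal of mitochondrially encoded and ribosomal RNA these were 0.02 and -0.41.

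**Figure D2:**
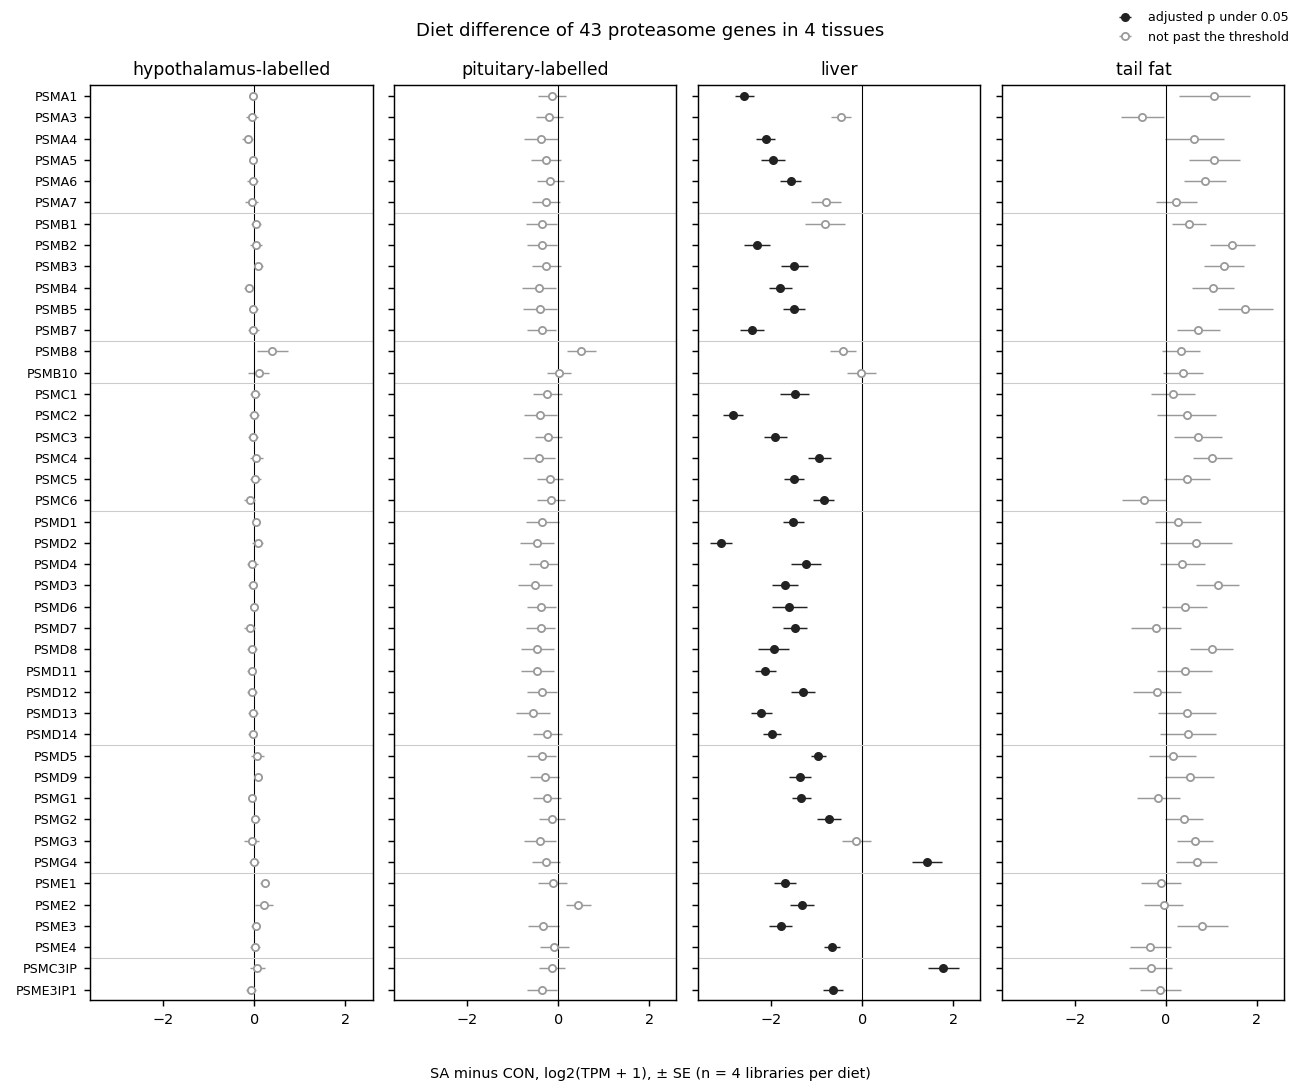
SA minus CON in each tissue (horizontal axes, log2(TPM + 1) scale, bars are SE, n = 4 libraries per diet) for the 43 tested members, with lines between roles; filled points passed an adjusted p of 0.05. Liver members centre on -1.49 and tail fat members on 0.46, and the negative liver values of PSMA3, PSMA7, PSMB1, PSMB8, PSMB10, PSMC4, PSMC6, PSMD5, PSMG2, PSMG3, PSME3IP1 and PSME4 turn positive under at least 1 other scaling.

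The subunits with the largest declines were PSMD2 and PSMC2 of the 19S particle and PSMA1 of the core. PSMD2, the base scaffold that docks ubiquitin carriers, had 45.8, 26.1, 31.0 and 51.6 TPM in liver CON and 3.51, 4.16, 3.05 and 3.18 TPM in SA (-3.10 ± 0.25, adjusted p = 3.4e-05). The ATPase PSMC2 had 38.7, 41.9, 45.1 and 49.3 TPM in CON and 4.17, 5.31, 4.62 and 7.21 TPM in SA (-2.84 ± 0.21, adjusted p = 3.4e-05). In both genes every SA library lay far below every CON library. PSMD14, the lid's deubiquitinase, had 13.5, 19.0, 17.4 and 18.7 TPM in CON and 2.94, 3.24, 3.41 and 4.97 TPM in SA (-1.98 ± 0.20, adjusted p = 6.9e-05). All 11 non-ATPase subunits and all 6 ATPases were called lower, although the ATPases PSMC4 (-0.94) and PSMC6 (-0.85) turned to small positive, uncalled values under both other scalings. PSMD6, the most abundant member in CON liver, had 77.8, 39.7, 106 and 41.9 TPM in SA and changed by -1.60 ± 0.39 (adjusted p = 0.00496). In SA liver PSMB1 (68.0 ± 32.5 TPM) and PSMD6 (66.4 ± 31.8 TPM, n = 4) had the highest means, apart by less than their SD.

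In the core, 4 of 6 alpha subunits and 5 of 6 constitutive beta subunits were called lower. The alpha subunit PSMA1 had 57.7, 68.3, 72.1 and 74.9 TPM in CON and 10.3, 10.4, 8.44 and 13.3 TPM in SA (-2.59 ± 0.21, adjusted p = 3.4e-05). PSMA3 (-0.46), PSMA7 (-0.80, adjusted p = 0.0522) and PSMB1 (-0.81, adjusted p = 0.129) were not called and were positive under both other scalings. PSMB1 had 106, 93.8, 105 and 116 TPM in CON and 72.0, 21.3, 94.7 and 84.0 TPM in SA, where SA 2 was far below the rest and SA 3 overlapped the controls. The highest core transcript was 7.50 to 11.2 times the lowest in SA liver and 5.51 to 7.97 times in CON liver, which overlapped.

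The constitutive catalytic subunits were called lower and the inducible ones were not, a difference that was not itself tested. PSMB5, the chymotrypsin-like subunit, had 74.5, 78.0, 76.7 and 102 TPM in CON and 31.0, 21.1, 27.9 and 35.6 TPM in SA (-1.50 ± 0.24, adjusted p = 0.000594; negative but not called under both other scalings). PSMB7, the trypsin-like subunit, had 100.3, 92.6, 108 and 109 TPM in CON and 19.6, 11.9, 25.4 and 18.2 TPM in SA (-2.43 ± 0.26, adjusted p = 8.2e-05). No SA library reached the controls in either gene. The replacement for PSMB5, PSMB8, had 26.8, 33.0, 24.7 and 20.7 TPM in CON and 18.2, 14.5, 15.9 and 32.1 TPM in SA. Its change of -0.42 ± 0.28 was not called (adjusted p = 0.217), was called lower without SA 4 (-0.65, adjusted p = 0.0309) and was positive, uncalled, under both other scalings. PSMB10 had 11.6, 20.3, 15.1 and 14.1 TPM in CON and 18.7, 8.42, 13.0 and 23.0 TPM in SA, with groups that overlapped fully (-0.02 ± 0.31, adjusted p = 0.967). It was called higher after quantile normalization (0.88, adjusted p = 0.0174) and after removal of mitochondrially encoded and ribosomal RNA (1.04, adjusted p = 0.0105).

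A ratio of levels within a library does not depend on the library's total. PSMB8 to PSMB5 was 0.203 to 0.423 in CON liver and 0.570 to 0.901 in SA liver, and PSMB10 to PSMB7 was 0.116 to 0.219 in CON and 0.513 to 1.26 in SA, with no overlap in either case. Ratios are given as a description, with no test. Markers of immune cells, in which inducible subunits are abundant, were lower in SA liver, with 5 of 6 of the macrophage list and 5 of 5 of the T and NK cell list called on the deposited scale, on which 59.1% of all genes were called lower. The macrophage list summed to 424 to 710 TPM in CON and 136 to 379 TPM in SA, and the T and NK cell list to 16.1 to 44.9 and 4.46 to 12.6 TPM. Of the hepatocyte list 5 of 7 were called lower, and the part of cell composition in the ratios was not tested. Of the 16 tested genes of interferon signalling and antigen presentation, 12 were called lower in SA liver, among them TAP2 (-2.03), ERAP1 (-1.76), PDIA3 (-2.89) and TAPBP (-2.24). TAP2 lies next to PSMB8 in the RefSeq sheep annotation.

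**Figure D3:**
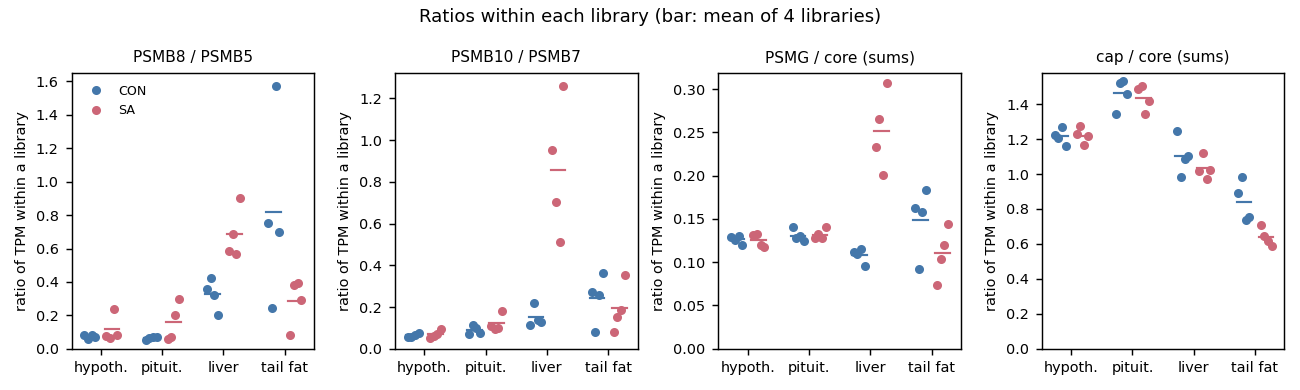
Ratios of TPM within each library (vertical axes) by tissue and diet: PSMB8 to PSMB5, PSMB10 to PSMB7, the 4 PSMG genes to the core, and the 17 cap subunits to the core; points are libraries and bars group means. In liver the SA points of the first 3 ratios lie above every CON point, and in tail fat the SA points of the last lie below every CON point.

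All 4 activators were called lower in SA liver. PSME1 had 54.4, 40.9, 59.1 and 46.1 TPM in SA, below every CON value listed above (-1.70 ± 0.25, adjusted p = 0.000335). PSME2 had 50.1, 33.9, 66.3 and 52.0 TPM in SA, also below every control (-1.32 ± 0.27, adjusted p = 0.00217). Both remained negative under both other scalings, without a call. PSME3, the nuclear PA28 gamma, had 21.4, 19.2, 27.0 and 39.5 TPM in CON and 5.86, 5.79, 7.89 and 7.73 TPM in SA (-1.79 ± 0.25, adjusted p = 0.000275). PSME4, or PA200, had 6.19, 4.61, 5.85 and 5.50 TPM in CON and 2.86, 2.83, 4.02 and 2.79 TPM in SA (-0.67 ± 0.17, adjusted p = 0.00674), and its sign turned under both other scalings (0.11 and 0.24, not called). PSME3 and PSME4 therefore separated: PSME4 to PSME3 averaged 0.221 in CON and 0.462 in SA liver, without overlap.

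The assembly chaperones were the mixed class. PSMG1, PSMG2, PSMD5 and PSMD9 were called lower (-1.33, -0.73, -0.96 and -1.36), of which PSMG2 turned positive under both other scalings and PSMD5 under removal of mitochondrially encoded and ribosomal RNA. PSMG4 rose: it had 6.63, 5.75, 5.41 and 4.88 TPM in CON and 16.7, 14.0, 9.89 and 33.6 TPM in SA (1.42 ± 0.32, adjusted p = 0.00373). Every SA library exceeded every control, and SA 4 was the highest. Its partner PSMG3 had 45.4, 31.8, 41.1 and 33.6 TPM in CON and 30.9, 21.7, 33.5 and 60.8 TPM in SA, which overlapped (-0.13 ± 0.32, adjusted p = 0.733), and it was called higher under both other scalings (0.87 and 0.95). The summed level of the 4 PSMG genes relative to the 12 core genes was 0.0954 to 0.116 in CON and 0.201 to 0.307 in SA. Of the partner proteins, PSMC3IP went from 0.35, 0.60, 0.57 and 0.25 TPM to 6.00, 1.47, 3.20 and 7.30 TPM (1.79 ± 0.34, adjusted p = 0.00154), levels still low among the members. All 4 controls were below 1 TPM, so the gene passed the expression filter only through the SA libraries, where it is high. PSME3IP1 was called lower (-0.64, adjusted p = 0.0263) and turned positive under both other scalings.

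With the other scalings the number of liver calls was smaller. Quantile normalization gave 15 lower (34.9%) and 4 higher (9.30%), beside 21.1% and 16.3% of all genes, and removal of mitochondrially encoded and ribosomal RNA gave 13 lower (30.2%) and 4 higher (9.30%), beside 12.7% and 15.7%. The 13 members called lower under all 3 scalings were PSMA1, PSMA4, PSMA5, PSMB2, PSMB4, PSMB7, PSMC2, PSMC3, PSMD2, PSMD8, PSMD11, PSMD13 and PSMD14. PSMG4 was called higher under all 3, as was PSMC3IP, with the limit of the expression filter given above.

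Genes that act with the proteasome in liver were also mostly lower on the deposited scale. Of 12 proteasome factors outside the symbol rule 10 were called lower and none higher, beside 59.1% of all genes called lower, including the lid-associated SEM1 (-2.60), the inhibitor PSMF1 (-2.16), the thioredoxin-like TXNL1 (-2.07) and the deubiquitinase USP14 (-1.36). All 7 tested genes of the NRF1 pathway were called lower, including NFE2L1 itself (-1.84) and VCP (-2.37), the ATPase that extracts its precursor from the endoplasmic reticulum. In the ubiquitin list 19 of 21 were called lower, for example the shuttle SQSTM1 (-2.28). The same held for 6 of 6 TRiC genes, 16 of 20 COP9 and eIF3 genes and 9 of 11 autophagy and lysosome genes, whose medians of -1.68, -1.57 and -1.80 were close to the members' -1.49.

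In tail fat the members' values were mostly higher in SA, but no member passed the test. Limma called 0 of 43 with all 8 libraries, while 6 had an unadjusted p under 0.05, 33 values were positive and 10 negative. Of all 11185 genes tested 0.697% were called, in either direction. The median was 0.46 for members and -0.06 for all genes. It moved with single libraries, to 0.16 for members without SA 1 (all genes -0.19), 0.21 without CON 3 (all genes -0.26) and 0.73 without CON 2 (all genes 0.21), and with the scaling, to 0.17 after quantile normalization (all genes 0.01) and 0.14 with mitochondrially encoded and ribosomal RNA removed (all genes -0.39). The beta ring held the largest values: PSMB5 1.74 ± 0.61 (adjusted p = 0.218), PSMB2 1.46 ± 0.50 (adjusted p = 0.206) and PSMB3 1.27 ± 0.43 (adjusted p = 0.202).

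PSMB3, a core subunit without catalytic activity, had 97.0, 180.4, 58.0 and 116 TPM in CON and 332, 236, 234 and 223 TPM in SA. PSMB2, another such subunit, had 52.8, 117, 30.6 and 42.6 TPM in CON and 257, 161, 129.5 and 90.3 TPM in SA. PSMB5 had 26.4, 89.5, 12.8 and 34.9 TPM in CON and 301, 90.9, 80.6 and 67.1 TPM in SA. In all 3 genes the highest control was CON 2 and the highest treated library SA 1, the pair set apart by CCDC152 and by the low mitochondrial share. PSMB3 did not overlap between the diets, whereas CON 2 lay above the lowest treated library in the other 2 genes. Over the 43 tested members CON 2 was the highest control in 36 and SA 1 the highest treated library in 30. Without these 2 libraries, PSMB2 (1.57, adjusted p = 0.0202), PSMB3 (1.40, adjusted p = 0.0352) and PSMB5 (1.74, adjusted p = 0.00957) were called higher, when 2.21% of all genes were. A fit that shared the spread of all 32 libraries called 6 members, all higher, beside 11.8% of all genes called in either direction. One that weighted libraries by quality called 11, all higher, beside 25.4% of all genes in either direction. Counted in either direction, the member calls of these fits are near the share for all genes. The shares of all genes called higher alone are not given here.

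**Figure D4:**
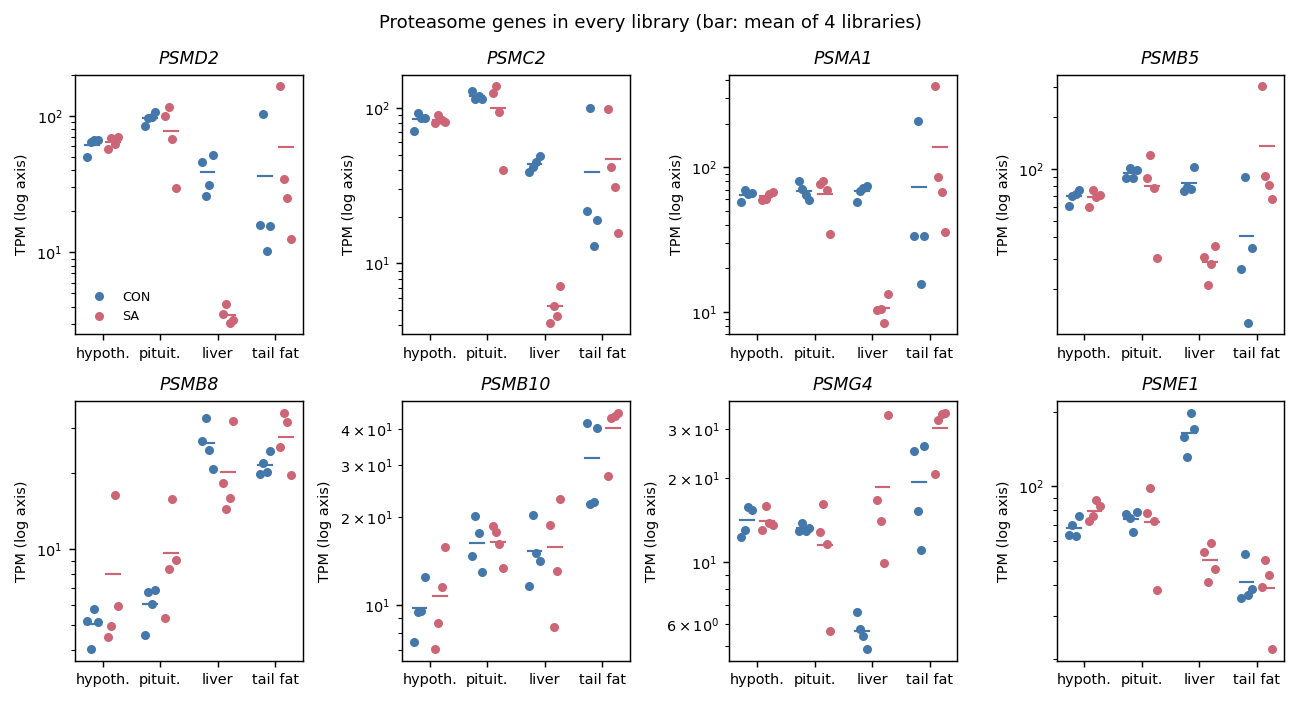
Level in each library (vertical axes, TPM, log scale) of PSMD2, PSMC2, PSMA1, PSMB5, PSMB8, PSMB10, PSMG4 and PSME1 by tissue and diet; points are libraries and bars group means. The 4 SA points of PSMB5 in liver (21.1 to 35.6 TPM) lie below all controls (74.5 to 102 TPM), while in tail fat SA 1 (301 TPM) stands far above the rest.

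The negative values in tail fat were small against their errors. PSMA3 had 29.3, 48.4, 14.6 and 23.6 TPM in CON and 18.7, 23.4, 18.7 and 13.2 TPM in SA (-0.52 ± 0.46, adjusted p = 0.645). The ATPase PSMC6 had 37.2, 115, 24.3 and 44.1 TPM in CON and 32.5, 37.1, 33.0 and 29.4 TPM in SA (-0.49, adjusted p = 0.694). CON 2 was the highest library for both genes, and the groups overlapped. Among the other catalytic subunits, PSMB7 had 153, 274, 88.1 and 111 TPM in CON and 339, 287, 238 and 129 TPM in SA. PSMB8 had 25.3, 34.6, 31.7 and 19.7 TPM in SA and PSMB10 had 41.9, 22.1, 22.6 and 40.2 TPM in CON and 27.5, 43.7, 44.5 and 45.5 TPM in SA. All 3 overlapped between the diets.

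The activators of tail fat showed no common direction. PSME1 had 39.2, 50.3, 43.9 and 22.0 TPM in SA and PSME2 had 42.9, 74.4, 55.5 and 32.8 TPM. PSME3 had 14.6, 41.7, 7.86 and 16.9 TPM in CON and 71.3, 24.8, 22.9 and 20.7 TPM in SA. PSME4 ran from 9.35 to 24.4 TPM in CON, with CON 2 the highest, and from 9.44 to 12.5 TPM in SA (-0.35, adjusted p = 0.770). Each of the 4 overlapped between the diets. Their ratio did not: PSME4 to PSME3 was 0.586 to 1.19 in CON and 0.132 to 0.525 in SA, and the 17 subunits of the 19S particle relative to the 12 of the core gave 0.736 to 0.980 in CON and 0.589 to 0.708 in SA. The latter ratio averaged 1.10 in CON and 1.03 in SA liver.

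Whether the diet difference itself varied with tissue was tested by the interaction of diet and tissue over all 32 libraries. On the deposited scale it was called for 29 of 43 members (67.4%), against 27.0% of the 16360 genes tested. By role these were 4 of 6 alpha subunits, 5 of 6 beta subunits, 0 of 2 inducible subunits, 5 of 6 ATPases, 8 of 11 non-ATPase subunits, 3 of 6 assembly chaperones, 3 of 4 activators and 1 of 2 partner proteins. The smallest p-values were those of PSMB2 (F = 20.6, adjusted p = 1.7e-05) and PSMB7 (F = 18.1, adjusted p = 4.5e-05), followed by PSMB3 and PSMB4, all of the beta ring. For PSMB2 the separate tissues gave -2.31 in liver and 1.46 in tail fat. PSMB8 (adjusted p = 0.291) and PSMB10 (adjusted p = 0.845) were not called. The count was 11 without the libraries numbered 1, when 6.89% of all genes were called, and 12 without those numbered 3, when 8.32% were. It was 33 without tail fat CON 2 and SA 1, when 35.8% of all genes were called. Quantile normalization gave 20 members and removal of mitochondrially encoded and ribosomal RNA 25, with the shares of all genes not given here.

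In hypothalamus no member passed the test by limma (0 of 43, as 0% of the 14126 genes), and 1 member, PSME1, had an unadjusted p under 0.05. Values lay between -0.14 and 0.40 with a median of -0.02, beside 0.02 for all genes. PSME1 had 63.7, 69.5, 62.8 and 76.1 TPM in CON and 72.3, 75.8, 87.9 and 83.3 TPM in SA, with overlap (0.23 ± 0.10, adjusted p = 0.95). PSME2 had 19.8, 20.0, 27.9 and 24.2 TPM in SA. The other activators were as level, at 35.7 to 42.5 TPM in CON and 36.3 to 45.1 TPM in SA for PSME3 and 5.89 to 7.77 and 6.29 to 7.57 TPM for PSME4. The largest value belonged to PSMB8, which had 4.49, 4.96, 16.4 and 5.97 TPM in SA. It rests on SA 3, and without that library its change was 0.02 (adjusted p = 1.00).

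The constitutive catalytic subunits of hypothalamus overlapped between the diets. PSMB5 ranged from 61.3 to 75.2 TPM in CON and from 60.2 to 75.1 TPM in SA. PSMB7 ranged from 132 to 167 and from 131 to 166 TPM. PSMB10 had 7.47, 9.47, 9.53 and 12.4 TPM in CON and 7.06, 8.66, 11.5 and 15.7 TPM in SA. The lowest p-values among negative changes were those of PSMA4, PSMB4 and PSMC6, whose SA libraries ran from 40.7 to 46.0, 85.6 to 105 and 65.6 to 81.6 TPM and whose controls ran from 41.4 to 57.5, 91.0 to 109 and 71.4 to 94.0 TPM. All overlapped.

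Pituitary gave 0 of 43 calls by limma, as 0% of 14472 genes, and 0 members had an unadjusted p under 0.05. Of the 43 values 40 were negative, with a median of -0.32 beside -0.27 for all genes. These rest on SA 4, the library with the mitochondrial share of 67.4%, which was the lowest treated library in 40 of 43 members. Without it the median was -0.01 for members and -0.02 for all genes, and 23 values were negative. PSMB5 had 87.9, 102, 88.0 and 99.1 TPM in CON and 88.7, 119.8, 77.4 and 30.3 TPM in SA, and PSMB7 had 201, 175, 173 and 170.0 TPM in CON and 173, 182, 159 and 74.3 TPM in SA. In both, SA 4 alone was far below the controls. The lid subunits PSMD3, PSMD8 and PSMD13 had the lowest p-values among negative changes and the same shape, with 16.8, 30.3 and 24.2 TPM in SA 4 and at least 41.7, 71.8 and 50.4 TPM in the other treated libraries.

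The 3 pituitary members with positive values were PSMB8 (0.51), PSME2 (0.45) and PSMB10 (0.02). PSMB8 had 4.58, 6.77, 6.08 and 6.92 TPM in CON and 5.36, 8.36, 15.7 and 9.07 TPM in SA, where SA 3 was again the highest and SA 1 lay within the controls. PSME2 had 34.8, 30.8, 38.2 and 34.9 TPM in SA against 21.0 to 27.3 TPM in CON, without overlap, and was called in the fit that weighted libraries (0.58, adjusted p = 0.0384). PSMB10 had 14.7, 20.1, 17.6 and 12.9 TPM in CON and 18.6, 17.7, 16.1 and 13.3 TPM in SA. Only PSME2 of these 3 separated the diets. The shares of all genes that did so, or were called in the weighted fit, are not given here. The PSME2 values therefore do not show a difference particular to this gene. PSME1 had 77.1, 74.2, 65.5 and 79.1 TPM in CON and 78.1, 98.1, 72.3 and 38.1 TPM in SA. PSME3 ranged from 47.5 to 53.1 TPM in CON and from 20.1 to 58.0 TPM in SA, and PSME4 from 7.46 to 14.3 and from 5.30 to 13.2 TPM, with the lowest value of each in SA 4. Macrophage and microglia markers summed to 101 to 138 TPM in pituitary CON and 123 to 192 TPM in SA, and in hypothalamus to 97.1 to 157 and 128 to 226 TPM. Their part in the PSME2 and PSMB8 values was not tested.

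Some members share sequence with a neighbour. In the RefSeq annotation PSMA3, PSMC1, PSMD6, PSME1, PSMC3IP, PSME3 and PSMD1 overlap ARMH4, NRDE2, ATXN7, EMC9, MLX, AOC2 and HTR2B, and PSMB5 and PSMC4 overlap noncoding RNAs. The library kit keeps strand, but the strand setting used in counting is not given in the sources used here, so reads of these pairs may not have been separated. PSME1 and PSME2 lie on either side of EMC9, and PSMB8 lies between TAP2 and TAP1.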

How the data were processed

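RNA-seq of 32 libraries (4 tissues, 2 diets, 4 libraries a group) was read from a deposited table of TPM values, which the authors made with fastp, HISAT2 and RSEM, per the submitters' processing notes. Versions, genome build, annotation and strand setting were not given in the sources used here. Libraries total 936939 to 987320 TPM; the 8 columns of group means were not used. TPM keeps no depth, so precision rests on replicate spread.

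Values were tested as log2(TPM + 1) with limma 3.58.1 (R 4.3.3; trend and robust empirical Bayes, two-sided, Benjamini-Hochberg over all genes, threshold 0.05) for genes that reached 1 TPM in 4 or more libraries of a fit. Diet was tested in each tissue, the diet by tissue interaction over all libraries, and 3 orthogonal tissue contrasts over CON libraries. Alternatives were other scalings, pseudocounts, filters, designs and left-out libraries; those that leave out tail fat CON 2 and SA 1 together, tail fat CON 2 from the tissue contrasts or pituitary SA 4 were chosen after seeing the data. The model code was tested on simulated data.

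The members and lists were chosen with earlier results of these data known. Values per library are given for the catalytic subunits, the activators, the 3 members of smallest p in each direction of each comparison, and the members of highest and lowest mean; listed genes by up to 4 of smallest p. PSMA1, PSMB1, PSMC1, PSMC5, PSMD14, PSMG3 and PSMG4 were in places described further after their values were seen. RefSeq served only for neighbouring and overlapping genes; its coordinates and sequences were not used.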

Additional observations from a re-analysis of the deposited data

Results flagged for a closer look

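In 11 of 112 groups of 4 libraries checked, for the 4 catalytic subunits, the 4 activators, the members' summed level and 5 ratios (PSMB8 to PSMB5, PSMB10 to PSMB7, PSME1 to PSME3, PSME4 to PSME3 and cap to core), 1 library stood apart from the others by Dixon's criterion, which chance meets in about 1 in 20 groups. Tail fat SA 1 was such a library for PSMB5 (301.13 TPM, others 67.1 to 90.9), PSME3 (71.3 TPM, others 20.7 to 24.8), PSMB10 (27.49 TPM, others 43.7 to 45.5) and the ratio of PSME4 to PSME3 (0.132, others 0.493 to 0.525). Hypothalamus SA 3 stood apart for PSMB8 (16.42 TPM, others 4.49 to 5.97) and for PSMB8 to PSMB5 (0.240, others 0.0660 to 0.0842). In liver this held for PSMB5 in CON 4 (102.13 TPM, others 74.5 to 78.0), PSME4 in SA 3 (4.02 TPM, others 2.79 to 2.86) and PSME4 to PSME3 in SA 4 (0.361, others 0.488 to 0.510). In pituitary it held for PSMB7 in CON 1 (201.07 TPM, others 170.0 to 175) and PSMB10 to PSMB7 in SA 4 (0.180, others 0.0971 to 0.107).

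The diet difference also varied with tissue for 29 of 43 members, by limma's interaction test, against 27.0% of all genes tested. The count was 11 without the libraries numbered 1 and 12 without those numbered 3.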

How the results depend on the processing

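Calls kept their side of the threshold in hypothalamus (0) under every alternative run. In liver, 37 members were called; quantile normalization called 19 and removal of mitochondrially encoded and ribosomal RNA 17, and PSMB10 turned to 0.88 and 1.04 and PSME4 to 0.11 and 0.24. In pituitary, array weights called 1. In tail fat, 0 calls became 1 (quantile), 3 (RNA removed), 11 (array weights), 6 (joint fit), 3 (without CON 2 and SA 1) and 0 to 3 with 1 library left out. The interaction count of 29 became 20 under quantile normalization and 25 with RNA removed, and ran from 11 to 29 with 1 number left out. Liver against tail fat (16) gave 29 under quantile normalization, 29 with RNA removed, 28 without tail fat CON 2 and 7 to 24 with 1 number left out. Hypothalamus against pituitary (0) gave 5, 3 and 0 to 1 in the same order, and the brain-labelled contrast (22) gave 12 to 28 with 1 number left out and 32 without tail fat CON 2. Shares of all genes are not given beside these counts, so the counts alone do not show a difference particular to the members. The cause was not tested.

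Same-numbered libraries of the diets did not deviate together in every pair in any tissue, so the number was not taken to pair them. With the replicate block, 0 members were called in hypothalamus, 0 in pituitary, 36 in liver, 1 in tail fat (PSMB5), 29 in the interaction, 15 in liver against tail fat, 0 in hypothalamus against pituitary and 21 in the brain-labelled contrast. Same-numbered SA libraries of hypothalamus and pituitary correlated at 0.118 to 0.347, each best with its own number, a hint from the data and not the design.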

Other observations

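PSMB8 was highest in the library numbered SA 3 in both brain-labelled tissues, and other interferon-related genes were high there too. B2M, the light chain of MHC class I, had 349 TPM in hypothalamus SA 3 against 155 to 224 TPM in the other 7 hypothalamus libraries, and 370 TPM in pituitary SA 3 against 130 to 205 TPM. In hypothalamus 13 of the 14 tested genes of the interferon and antigen presentation list had positive values in SA, with none called, and in pituitary 7 of 14. All 7 macrophage and microglia markers had positive values in hypothalamus and 6 of 7 in pituitary, with none called. The labels do not say whether the libraries numbered SA 3 came from the same sheep.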
